A study of Homo sapiens with 5 samples.

Results

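DNA repair genes were followed in ribosome footprints of HAP1 cells, with MGMT, the suicide enzyme of alkylated guanine, among them. The members were 51 named genes of direct reversal, mismatch, excision, recombination, end joining and crosslink repair, with the damage kinases ATM and ATR, looked up by symbol in the deposited table. Of these, 47 had a row among the 14084 rows of the table and all 47 passed the filter on low counts, so that 47 of 11335 tested genes are described. PMS1, BRCA2, XRCC4 and XRCC5 were not analysed here. HAP1 is an established near-haploid human line derived from a leukaemia line. The libraries form 2 groups, METTL18 knockout (n = 3) and wild type (n = 2), both in HAP1 cells with no agent named beyond the cycloheximide of the lysis and gradient buffers. METTL18 is the enzyme that methylates a histidine in the ribosomal protein RPL3. The labels do not give the position of the mutation, say whether the knockout is a clone, or say that libraries came from separate cultures, so p-values measure only how these libraries vary, and that variation may be technical.

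Cells remove DNA damage by several routes. MGMT and the ALKBH dioxygenases undo alkylation directly on the base. Mismatch repair corrects replication errors, base excision removes small damaged bases through a glycosylase, an abasic-site nuclease, a polymerase and a ligase, and nucleotide excision cuts out bulky lesions. Broken ends are rejoined by end joining or copied from the sister chromatid by homologous recombination, and the Fanconi anaemia proteins open the way past crosslinks. A footprint count depends both on how much mRNA a gene has and on how densely ribosomes occupy it, and no mRNA data were analysed here. The labels' molecule field reads polyA RNA while their protocol describes fragments protected from nuclease, and the values are read here as footprints after the protocol. In bulk samples, fewer cells of a type and less RNA per cell cannot be told apart.

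The knockout libraries held 16339574, 17629199 and 16921863 counts and the wild-type libraries 5302160 and 4887380 counts, so depth runs with the groups. Levels are in CPM, the count relative to a library total scaled by the TMM method, with the mean ± SD where a single value is given. Fold changes are knockout over wild type, on the log2 scale unless named otherwise, with their SE, and a gene was called where edgeR's quasi-likelihood test gave an adjusted p under 0.05. METTL18 itself kept footprints, at 2.1 ± 0.117 CPM in the knockout (SD, n = 3) and 5.70 ± 0.211 CPM in the wild type (SD, n = 2), lower by a log2 fold change of -1.44 (adjusted p = 2e-06). Markers of other cells moved with the groups. Of 9 tested pluripotency markers 8 rose, where 37.8% of all tested genes rose. All 10 summed to 1030.0 to 1106 CPM in the knockout and 709.5 to 742.5 CPM in the wild type. SOX2, the most abundant of them, did not pass (log2 fold change -0.04, adjusted p = 0.406). It stood at 537.7 ± 21.98 CPM in the knockout (SD, n = 3) and 552.5 ± 24.75 CPM in the wild type (SD, n = 2). ZFP42, LIN28A, NANOG and SALL4 were at 0 in both wild-type libraries, and POU5F1 was at 0 in them and in 1 knockout library. The 7 blood markers with a row summed to 9.20 to 10.8 CPM in the knockout and 19.2 to 20.9 CPM in the wild type. CD33 was at 0 throughout, CD34 at 0 in the knockout and ITGAM at 0 in the wild type. Only 2 of them were tested, KIT (-0.50 on the log2 scale) and TAL1 (-2.13), and both were lower. The 5 fibroblast markers with a row summed to 24.2 to 26.3 CPM in the knockout and 16.3 to 17.9 CPM in the wild type. The part of such differences in the repair genes was not tested.

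Repair genes moved in both directions. Of the 47 members, 12 rose, 22 fell and 13 did not pass. That is 72.3% called, where 74.4% of all tested genes were called, so the number of calls is near the background. By direction, 25.5% of members rose, against 37.8% of all genes, and 46.8% fell, against 36.6% of all genes. The 77 other genes tested from these pathways did not share that lean, since 50.65% rose and 18.2% fell. These shares of all genes are the background for each list counted below. With total-count scaling, which moved the median of all genes to -0.25, 11 members rose and 29 fell, and over all genes 2982 rose and 5597 fell, in place of 4288 and 4143. Large changes were few: 6 members (12.8%) differed by a log2 fold change of at least 1 in size, against 27.5% of all genes. Knockout and wild-type libraries did not overlap for 38 members (80.9%), against 83.5% of all genes. The median log2 fold change of the members was -0.13, beside 0.0161 over all genes.

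**Figure D1:**
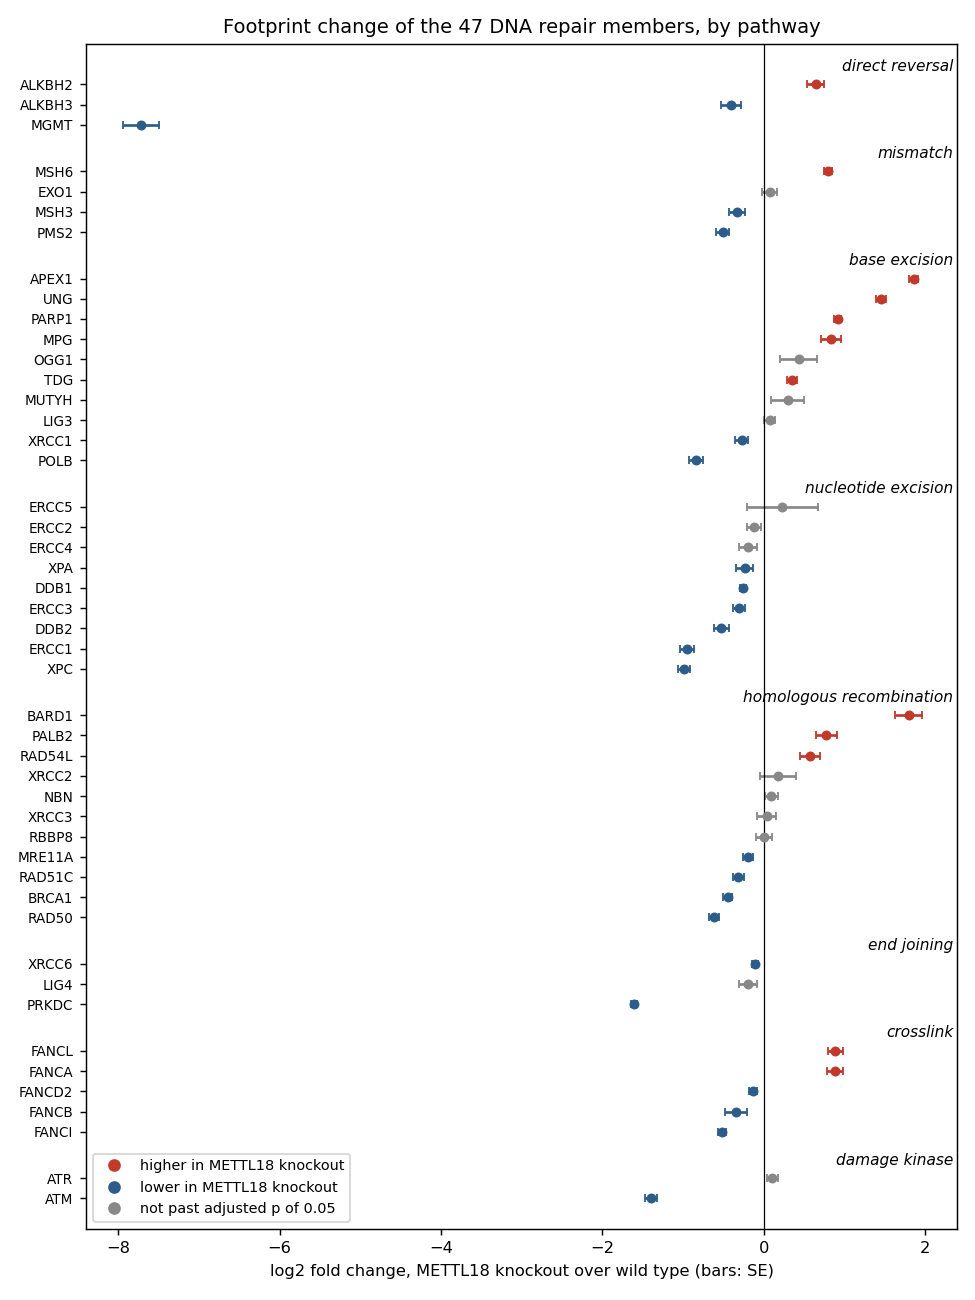
Log2 fold change of each of the 47 repair genes (x axis, METTL18 knockout over wild type, bars are SE), grouped by pathway and sorted within it. MGMT lies at -7.72, apart from all other members, which lie between -1.61 and 1.86.

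By pathway, base excision had 5 rises and 2 falls among 10 genes, and nucleotide excision had no rise and 6 falls among 9. Homologous recombination was mixed, with 3 rises and 4 falls among 11. The summed level of the base excision genes was 1868 to 1907 CPM in the knockout and 1033 to 1058 CPM in the wild type. That of the nucleotide excision genes was 970.6 to 975.7 CPM in the knockout and 1212 to 1218 CPM in the wild type. The difference between pathways was not tested. All 47 genes together took 6884 ± 40.8 CPM in the knockout (SD, n = 3) and 8762 ± 40.8 CPM in the wild type (SD, n = 2). PRKDC decided that direction, since the other 46 took 5742 ± 64.9 CPM in the knockout and 5272 ± 7.32 CPM in the wild type.

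**Figure D2:**
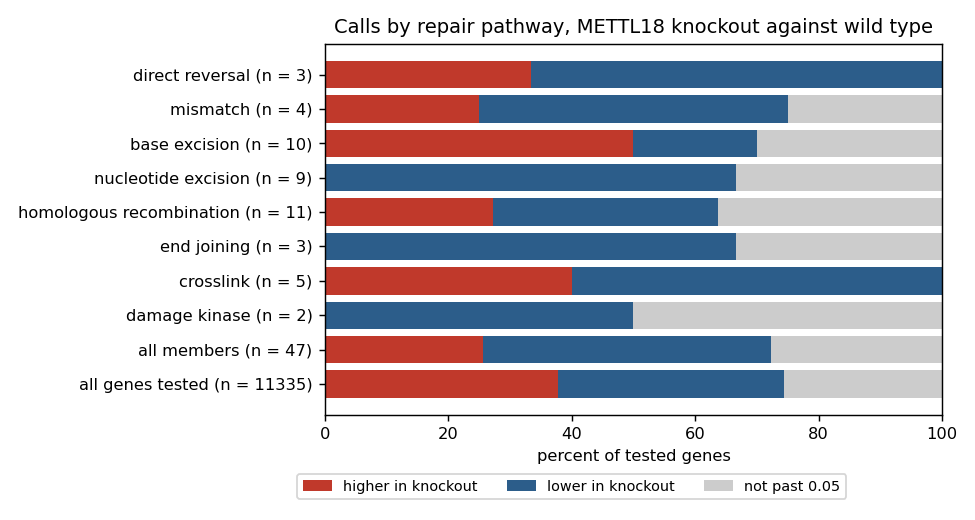
Share of tested genes (x axis, percent) that were higher, lower or not past an adjusted p of 0.05 in the METTL18 knockout, for each repair pathway, all members and all 11335 genes tested. Nucleotide excision (9 genes), end joining (3 genes) and the damage kinases (2 genes) hold no gene called higher, and base excision holds 5 of 10.

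Direct reversal held the largest change. MGMT, which moves the alkyl group from guanine onto itself and is used up by it, was almost without footprints in the knockout. Its row (transcript ENST00000306010, hg38 chromosome 10, 129467184 to 129768007, plus strand) had 6, 2 and 1 counts in the knockout libraries, against 269 and 215 counts in the shallower wild-type libraries. In CPM it stood at 0.396, 0.123 and 0.0634 in the knockout and at 45.3 and 39.3 in the wild type, so that the groups lie far apart. The log2 fold change was -7.72 (SE 0.223, adjusted p = 1.05e-29), the 27th lowest among the 4143 genes called lower. From the summed counts, 9 in the knockout and 484 in the wild type, the wild-type level was 222.5 times the knockout level, with an exact 95% interval of 116 to 489.5 that covers counting error only. Without METTL18 knockout replicate 1, which holds 6 of the 9 counts, the log2 fold change was -8.66. No window of 28 bases of its coding sequence occurs in a transcript of another gene.

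The MGMT promoter is known as a CpG island whose methylation silences the gene in many tumours, and methylation was not measured here. The stretch just before the transcript's first base is shown because MGMT is the member whose footprints were nearly lost. It is 193 bases long, lies at chr10:129466991-129467183 on the plus strand (RefSeq, GRCh38.p14), and has its 28 CG pairs in capitals. Its GC content is 80.3%.
MGMT: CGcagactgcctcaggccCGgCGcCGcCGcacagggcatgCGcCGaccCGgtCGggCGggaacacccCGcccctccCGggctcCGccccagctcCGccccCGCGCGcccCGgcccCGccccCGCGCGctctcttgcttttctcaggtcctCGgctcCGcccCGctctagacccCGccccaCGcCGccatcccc
In the RefSeq promoter window of MGMT, 250 bases before to 50 after the RefSeq start, there are 45 CG pairs, more than in 96.6% of 27305 human promoters of that length. The median was 28 over the 43 members with a promoter in the table, 27 over 9064 promoters of tested genes and 14 over all promoters.

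Genes beside MGMT were looked at after its value was seen. EBF3, whose start lies 496657 bases away, stood at 24.9 ± 1.87 CPM in the knockout (SD, n = 3) and 28.95 ± 0.706 CPM in the wild type (SD, n = 2) and did not pass (adjusted p = 0.0528). MKI67, the proliferation marker on the other side, did not pass either (log2 fold change 0.085, adjusted p = 0.0726). GLRX3, a glutaredoxin, rose by 0.42. PTPRE, a receptor phosphatase that starts 1560123 bases before MGMT, fell as well, at 0.022 ± 0.0381 CPM in the knockout (SD, n = 3) and 4.30 ± 0.128 CPM in the wild type (SD, n = 2) (log2 fold change -7.08, adjusted p = 1.08e-13).

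The other direct reversal enzymes changed far less, and in opposite directions. ALKBH2, the nuclear dioxygenase that demethylates bases in duplex DNA, stood at 31.95, 33.35 and 33.05 CPM in the knockout and 19.02 and 23.04 CPM in the wild type, 0.65 higher on the log2 scale (SE 0.104, adjusted p = 5.8e-07). ALKBH3, which prefers unpaired DNA and RNA, stood at 16.2, 14.5 and 13.6 CPM in the knockout and 18.35 and 20.85 CPM in the wild type, with -0.41 on the log2 scale (SE 0.124, adjusted p = 0.00341). The groups did not overlap for either gene, though the gap of ALKBH3 was narrow, and its call was lost without wild type replicate 2 (-0.32, adjusted p = 0.0869). ASCC3, the helicase that works with ALKBH3, fell as well (-0.54), while ALKBH1 rose, at 28.4 ± 0.394 CPM in the knockout (SD, n = 3) and 12.2 ± 1.09 CPM in the wild type (SD, n = 2). ASCC1 rose (0.48) and ASCC2 did not pass, so that 2 of these 4 other genes rose and 1 fell.

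**Figure D3:**
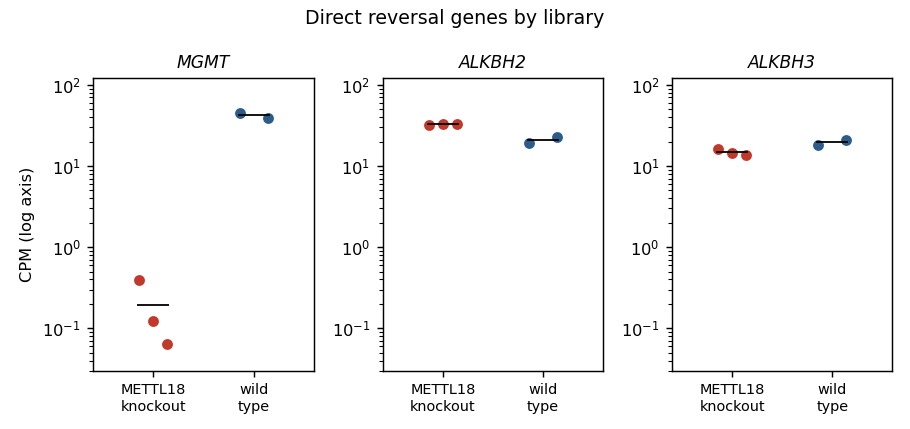
Level of MGMT, ALKBH2 and ALKBH3 in each library (y axis, CPM on a log scale, METTL18 knockout left, wild type right, black line is the group mean). MGMT lies under 0.4 CPM in the 3 knockout libraries and near 40 CPM in the wild type, while the ALKBH genes stay within a narrow range.

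Among mismatch genes, MSH6 rose while MSH3 and PMS2 fell. MSH6 and MSH3 are the alternative subunits of the dimers that recognise mismatches, MSH6 for base mismatches and short loops, and MSH3 for larger loops. MSH6 stood at 509.5, 537.7 and 502.7 CPM in the knockout and 294.9 and 301.2 CPM in the wild type (log2 fold change 0.79, SE 0.0452, adjusted p = 2.1e-19). MSH3 stood at 30.4, 28.6 and 27.15 CPM in the knockout and 33.7 and 38.8 CPM in the wild type (-0.33, SE 0.0936, adjusted p = 0.00163). The fall of MSH3 is small beside the rise of MSH6, and its call was lost without wild type replicate 2 (-0.24, adjusted p = 0.0913). PMS2, an endonuclease subunit, stood at 36.1, 37.2 and 36.1 CPM in the knockout and 47.97 and 56.15 CPM in the wild type (-0.51, SE 0.0819, adjusted p = 5.58e-07). Of its windows of 28 bases, 49.6% occur in a transcript of another gene, mostly the pseudogene PMS2CL, and no source used here says how such reads were counted. EXO1, the exonuclease of the pathway, stood at 42.9 ± 3.39 CPM in the knockout (SD, n = 3) and 40.95 ± 3.64 CPM in the wild type (SD, n = 2) and did not pass (adjusted p = 0.466). MLH3, the other mismatch gene looked up, had at most 3 counts in a library and was not tested.

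Of the 10 base excision genes, 5 rose, among them glycosylases, the abasic-site nuclease and the nick sensor, while 2 fell and 3 did not pass. APEX1, the main abasic-site nuclease, had the largest rise of all members. It stood at 273.9, 270.9 and 285.6 CPM in the knockout and 74.4 and 78.3 CPM in the wild type (log2 fold change 1.86, SE 0.058, adjusted p = 1.67e-28). UNG, which removes uracil, stood at 144.2, 148.7 and 142.6 CPM in the knockout and 53.2 and 53.04 CPM in the wild type (1.45, SE 0.0653, adjusted p = 6.64e-23). PARP1, which binds nicks and builds ADP-ribose chains, stood at 1147, 1123 and 1105 CPM in the knockout and 603.5 and 589.5 CPM in the wild type (0.92, SE 0.0395, adjusted p = 1.48e-23). In each of these genes every knockout library lay above both wild-type libraries by many times the spread within a group.

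Of the other glycosylases, MPG, which removes alkylated purines, rose by 0.83 (25.7 ± 1.08 CPM in the knockout and 14.4 ± 2.01 CPM in the wild type). TDG, which removes thymine and oxidised methylcytosine opposite guanine, rose by 0.35, and 49.7% of its windows occur in another gene's transcripts, TDGP1 above all. With total-count scaling the call of TDG was lost (0.0763, adjusted p = 0.223). OGG1, which removes 8-oxoguanine, and MUTYH, which removes adenine opposite it, were low and did not pass. OGG1 averaged 6.30 ± 1.23 CPM in the knockout (SD, n = 3) and 4.67 ± 0.645 CPM in the wild type (SD, n = 2), and MUTYH 6.58 ± 0.558 CPM in the knockout and 5.36 ± 0.438 CPM in the wild type. OGG1 passed without METTL18 knockout replicate 2 (0.58, adjusted p = 0.0166).

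Genes of the gap-filling end fell or did not pass. POLB, the polymerase that fills the gap, stood at 27.0, 30.9 and 27.6 CPM in the knockout and 50.7 and 51.4 CPM in the wild type (log2 fold change -0.84, SE 0.0855, adjusted p = 1.33e-11). XRCC1, the scaffold that holds the ligase, stood at 44.8, 40.2 and 43.6 CPM in the knockout and 52.01 and 51.8 CPM in the wild type (-0.28, SE 0.0794, adjusted p = 0.002). LIG3, that ligase, stood at 91.03 ± 1.345 CPM in the knockout (SD, n = 3) and 86.4 ± 9.44 CPM in the wild type (SD, n = 2) and did not pass (adjusted p = 0.316). Of 15 other base excision genes tested, 5 rose, 1 fell and 9 did not pass. FEN1, the flap nuclease, rose by 1.10, MBD4, a further thymine glycosylase, by 1.28, and APEX2 by 0.76.

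**Figure D4:**
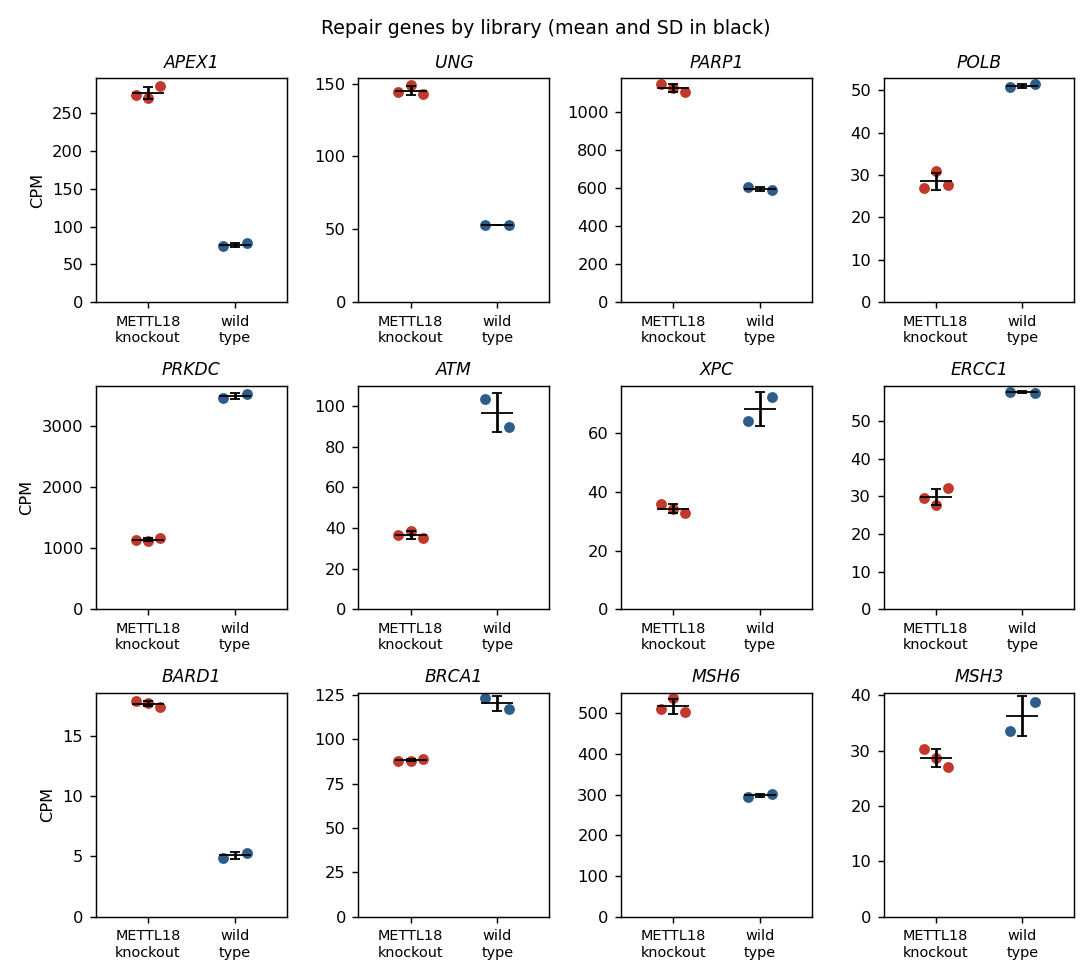
Level of 12 repair genes in each library (y axis, CPM from 0, METTL18 knockout left, wild type right, mean and SD in black). APEX1, UNG, PARP1, BARD1 and MSH6 lie higher and POLB, PRKDC, ATM, XPC, ERCC1, BRCA1 and MSH3 lower in every knockout library.

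Nucleotide excision genes fell or did not pass. XPC, the damage sensor of the genome-wide branch, stood at 35.7, 34.3 and 32.9 CPM in the knockout and 63.96 and 72.2 CPM in the wild type (log2 fold change -0.99, SE 0.0776, adjusted p = 6.84e-15). ERCC1, the partner of the nuclease ERCC4, stood at 29.5, 27.8 and 32.1 CPM in the knockout and 57.7 and 57.4 CPM in the wild type (-0.95, SE 0.0825, adjusted p = 1.36e-13). DDB2, which binds ultraviolet lesions and passes them to XPC, stood at 24.7, 24.8 and 24.9 CPM in the knockout and 35.7 and 35.7 CPM in the wild type (-0.53, SE 0.092, adjusted p = 2.77e-06). The groups do not overlap.

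The falls of DDB1, ERCC3 and XPA were smaller. DDB1, the adaptor of the CUL4 ubiquitin ligase, stood at 757 ± 2.62 CPM in the knockout (SD, n = 3) and 905.5 ± 16.1 CPM in the wild type (SD, n = 2), a log2 fold change of -0.26. ERCC3, a helicase of TFIIH, fell by 0.31 on the log2 scale. XPA, which verifies the lesion, was called lower (-0.24, adjusted p = 0.0423), but its groups overlapped, and 7 of 16 alternatives lost that call, among them DESeq2 (adjusted p = 0.106) and limma-voom (adjusted p = 0.0592), the lowest of the 7. ERCC2, the other TFIIH helicase, and ERCC4 did not pass (-0.13 and -0.20). ERCC5, the nuclease of the other side of the cut, had 18 to 28 counts in the knockout libraries and 5 and 9 in the wild-type libraries, and 97.5% of its windows are shared, mostly with the readthrough gene BIVM-ERCC5, so that its level is uncertain. Of 20 other nucleotide excision genes tested, 10 rose, 7 fell and 3 did not pass. RPA1, the large subunit of the protein that coats bare strands, rose (0.90), CETN2, a partner of XPC, rose (1.09), and CUL4B, a scaffold of the DDB1 ligase, fell (-0.69).

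XPC and DDB2 are known targets of the transcription factor p53 in human cells. Of 17 other p53 targets, 16 fell and 1 rose in the knockout, where 36.6% of all tested genes fell and 37.8% rose. Their median log2 fold change was -1.78, and they summed to 861.5 to 879.2 CPM in the knockout and 2880.0 to 2907 CPM in the wild type. CDKN1A, the cell-cycle inhibitor among them, fell by 4.30 and MDM2, the ubiquitin ligase of p53, by 2.41 on the log2 scale, both larger falls than those of XPC and DDB2. GDF15, a secreted stress factor, fell by 3.61. The part of this in the repair genes was not tested.

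Recombination genes split. BRCA1, which directs the choice of recombination, stood at 87.8, 87.95 and 88.9 CPM in the knockout and 123 and 117 CPM in the wild type (log2 fold change -0.45, SE 0.058, adjusted p = 5.67e-09). BARD1, its RING partner, stood at 17.9, 17.8 and 17.4 CPM in the knockout and 4.88 and 5.30 CPM in the wild type (1.80, SE 0.165, adjusted p = 7.28e-13). Its row held only 29 counts in each wild-type library. The deposited row of BARD1 is a transcript (ENST00000619009) with 792 coding bases, 34.0% of the 2331 of the longest in GENCODE, and reads of longer transcripts that share its exons may be in the row or left out. PALB2, the bridge between BRCA1 and the loader of the recombinase, stood at 21.3, 20.02 and 19.5 CPM in the knockout and 13.5 and 10.1 CPM in the wild type (0.78, SE 0.134, adjusted p = 2.09e-06). RAD54L, a motor that helps strand exchange, stood at 22.8, 20.8 and 20.04 CPM in the knockout and 14.98 and 13.35 CPM in the wild type (0.58, SE 0.125, adjusted p = 7.51e-05). Every knockout library was above both wild-type libraries for BARD1, PALB2 and RAD54L.

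Genes that act on the broken end fell or did not pass. RAD50, the coiled-coil subunit of the end-binding complex with MRE11A and NBN, stood at 87.5, 88.4 and 76.7 CPM in the knockout and 127 and 131 CPM in the wild type (log2 fold change -0.62, SE 0.0625, adjusted p = 1.08e-11). Of its windows, 96.7% also occur in a transcript annotated as another gene, AC116366.3, which limits the value. MRE11A, the nuclease, was lower by less (-0.19, adjusted p = 0.00654), and without wild type replicate 1 it did not pass (adjusted p = 0.0524). NBN, the third subunit, stood at 47.98 ± 3.61 CPM in the knockout (SD, n = 3) and 44.99 ± 2.32 CPM in the wild type (SD, n = 2) and did not pass (adjusted p = 0.316). RBBP8, which starts end resection, stood at 30.4 ± 2.74 CPM in the knockout and 30.3 ± 2.65 CPM in the wild type (adjusted p = 0.961). RAD51C, a paralog of the recombinase, stood at 69.2, 70.02 and 67.4 CPM in the knockout and 89.7 and 81.4 CPM in the wild type (-0.31, SE 0.0653, adjusted p = 4.21e-05), while its relatives XRCC2 and XRCC3 did not pass (0.18 and 0.03). Of 19 other recombination genes tested, 13 rose, 2 fell and 4 did not pass, with DNA2, a resection nuclease, up by 0.72, RAD51AP1 up by 0.68 and the helicase WRN lower (-1.002).

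PRKDC, the catalytic subunit of the kinase that holds broken ends for joining, had the largest fall after MGMT. It stood at 1129, 1125 and 1171 CPM in the knockout and 3456 and 3524 CPM in the wild type (log2 fold change -1.61, SE 0.0344, adjusted p = 2.27e-34). XRCC6, a subunit of the Ku dimer that recruits it, stood at 1129, 1145 and 1090.0 CPM in the knockout and 1198 and 1229 CPM in the wild type (-0.11, SE 0.0372, adjusted p = 0.00607). The level was 1.08 times as high in the wild type, 56.4% of the windows of XRCC6 are shared with other transcripts such as XRCC6P2, and the call was lost without wild type replicate 2 (-0.10, adjusted p = 0.108). LIG4, the ligase of end joining, stood at 18.2 ± 1.20 CPM in the knockout (SD, n = 3) and 20.8 ± 0.761 CPM in the wild type (SD, n = 2) and did not pass (adjusted p = 0.12). Of 7 other end joining genes tested, 3 rose, 1 fell and 3 did not pass. The gap-filling polymerases POLL (1.52) and POLM (1.33) rose.

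ATM and ATR, relatives of PRKDC that signal damage, differed from each other. ATM, which responds to broken ends, stood at 36.5, 38.6 and 34.9 CPM in the knockout and 103.5 and 89.8 CPM in the wild type (log2 fold change -1.40, SE 0.0727, adjusted p = 9.13e-21). ATR, which responds to stalled forks, stood at 80.1 ± 3.64 CPM in the knockout (SD, n = 3) and 74.5 ± 0.652 CPM in the wild type (SD, n = 2) and did not pass (0.10, adjusted p = 0.154). Per kilobase of coding sequence, ATM was at 4.00 CPM in the knockout and 10.54 CPM in the wild type, and ATR at 10.1 CPM in the knockout and 9.395 CPM in the wild type. On this scale ATM lay below ATR in the knockout and slightly above it in the wild type. PRKDC, ATM and ATR have the longest coding sequences of the members, and across the 47 members Spearman's rho between coding length and log2 fold change was -0.196, beside -0.165 across 11287 genes, as a description.

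Of the crosslink genes all 5 were called, 2 higher and 3 lower, where 74.4% of all tested genes were called. FANCL, the ubiquitin ligase of the pathway, stood at 47.1, 44.7 and 46.4 CPM in the knockout and 25.4 and 24.3 CPM in the wild type (log2 fold change 0.89, SE 0.0921, adjusted p = 2.1e-11). FANCA, of the same core complex, stood at 46.1, 51.7 and 54.99 CPM in the knockout and 30.5 and 24.7 CPM in the wild type (0.88, SE 0.098, adjusted p = 1.35e-10). The clamp that FANCL modifies went the other way. FANCI stood at 204, 217 and 209.6 CPM in the knockout and 305.0 and 297 CPM in the wild type (-0.52, SE 0.0468, adjusted p = 4.58e-13). FANCD2 stood at 153, 155 and 154 CPM in the knockout and 165 and 173 CPM in the wild type (-0.13, SE 0.0516, adjusted p = 0.0204). FANCB, an X-linked core subunit, stood at 11.4, 13.6 and 13.4 CPM in the knockout and 17.2 and 15.4 CPM in the wild type (-0.35, SE 0.133, adjusted p = 0.018). The groups did not overlap in any of the 5 genes, where they did not for 83.5% of all genes, and the calls of FANCB and FANCD2 were weak. That of FANCB was lost with DESeq2 (adjusted p = 0.0713), without METTL18 knockout replicate 1 (-0.28, adjusted p = 0.0596) and without wild type replicate 1 (-0.26, adjusted p = 0.21), and that of FANCD2 without wild type replicate 2 (-0.10, adjusted p = 0.201) and with no low-count filter (adjusted p = 0.0664). Of 13 other crosslink genes tested, 7 rose, 2 fell and 4 did not pass, with the core subunit FANCE up by 1.505, STRA13 up by 1.05 and the translocase FANCM up by 1.11.

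Ratios between genes whose proteins pair or substitute for each other were taken within each library, per coding base, so that no scaling factor enters. The footprints of BRCA1 per base of BARD1 were 0.688, 0.694 and 0.714 in the knockout and 3.54 and 3.10 in the wild type, with the short BARD1 transcript as the base. MSH6 to MSH3 was 14.03, 15.7 and 15.5 in the knockout and 7.32 and 6.495 in the wild type. ERCC4 to ERCC1 was 0.217, 0.242 and 0.201 in the knockout and 0.1295 and 0.130 in the wild type. NBN to RAD50 was 0.911, 1.03 and 1.04 in the knockout and 0.637 and 0.575 in the wild type. For all 9 pairs the groups did not overlap, as for 83.5% of single genes, and the share over other pairs of genes was not computed. The 9 log2 differences ran from -2.25 to 1.13. With 3 libraries against 2 an exact two-sided permutation test cannot go below p = 0.1, which 8 pairs reached (0.2 for ERCC2 to ERCC3), or 0.1125 after Benjamini-Hochberg adjustment over the 9, so none passed.

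**Figure D5:**
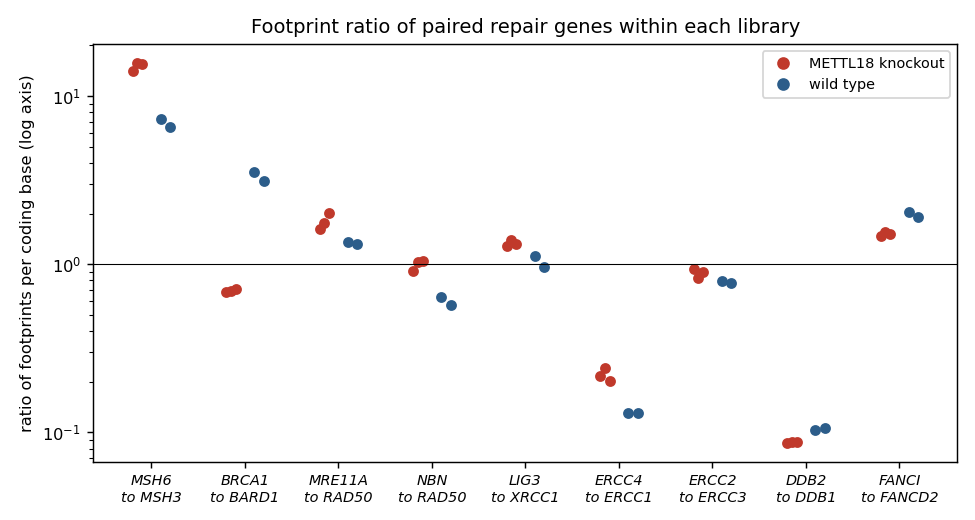
Ratio of footprints per coding base between paired repair genes in each library (y axis, log scale, METTL18 knockout in red, wild type in blue). BRCA1 to BARD1 lies under 1 in the 3 knockout libraries and above 3 in the wild type, and MSH6 to MSH3 lies near 15 in the knockout and near 7 in the wild type.

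Levels of the members spanned a wide range. Per kilobase of coding sequence, XRCC6 was highest in both groups, at 614 ± 15.6 CPM in the knockout (SD, n = 3) and 664 ± 12.1 CPM in the wild type (SD, n = 2). The 56.4% of its windows that occur in other transcripts limit this rank. In the knockout PARP1 (369.9 ± 6.93 CPM), APEX1 (290.1 ± 8.17 CPM) and DDB1 (221 ± 0.766 CPM) followed. In the wild type PRKDC (281.8 ± 3.88 CPM), DDB1 (264.8 ± 4.70 CPM) and PARP1 (196.1 ± 3.25 CPM) followed. MGMT was at 0.272 ± 0.249 CPM per kilobase in the knockout, the lowest of the members, and at 59.2 ± 5.90 CPM in the wild type, above PMS2, MSH3 and both ALKBH genes. ERCC5 was the lowest in the wild type, at 0.350 ± 0.160 CPM, with 97.5% of its windows shared.

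Several members start close to another gene that is read in the opposite direction. These neighbours were looked up for the 6 members with a log2 fold change of at least 1 in size, after their values were seen. PRKDC starts 715 bases from MCM4, a subunit of the replicative helicase, which rose by 1.18 while PRKDC fell. MCM4 stood at 1009 ± 14.9 CPM in the knockout and 444 ± 5.42 CPM in the wild type. Farther from PRKDC, SPIDR (-1.07), CEBPD (-3.19) and UBE2V2 (-0.43) fell as PRKDC did. ATM starts 190 bases from NPAT, an activator of histone genes, which rose by 0.40 while ATM fell. APEX1 starts 86 bases from OSGEP, a tRNA-modifying enzyme, which was lower (-0.52) while APEX1 rose. Farther from APEX1, PNP (0.79) rose, and TEP1 and TMEM55B did not pass. UNG starts 4102 bases from ALKBH2, and both rose. Farther from UNG, USP30 (-0.37), FOXN4 (-5.38) and UBE3B (-1.98) fell. BARD1 had no tested gene close by, and the nearest start, that of ATIC, lay 502106 bases away. Around BARD1, IKZF2 (1.51) rose, FN1 (-0.73) fell, and SPAG16 and ATIC did not pass.

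Replication genes and repair genes are often made in the same phase of the cell cycle. Of 31 replication genes, 25 rose and 4 fell, where 37.8% of all tested genes rose and 36.6% fell. Their median log2 fold change was 0.56, with CDT1, MCM4 and MCM6 up by 2.42, 1.18 and 1.08. Their summed level was 7850.0 to 7924 CPM in the knockout and 5268 to 5278 CPM in the wild type. Of the 77 other repair genes tested in all, 39 rose and 14 fell (50.6% and 18.2%), with a median log2 fold change of 0.26. The part of replication in either list was not tested.

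Promoter letters often bound by E2F factors were searched in the 43 RefSeq promoters of members, on both strands: TTTGGCGC, TTTCCCGC, TTTGGCGG, TTTCGCGC and CGCGAAA, of which the last overlaps the one before it. For 39 of the 43 the RefSeq start lies within 500 bases of the first base of the row's transcript. BRCA1 (44844 bases away), ERCC1 (27182), MPG (1206) and ERCC5 (1188) have it farther off. For DDB2 (488 bases apart), XRCC1 (479), DDB1 (261) and MUTYH (52) that first base also lies outside the window. The windows of all these genes need not be the promoter of the transcript counted. At least 1 of the strings of letters was found in 7 of the 43 (16.3%), in 7.14% of 9064 promoters of tested genes and in 4.18% of all 27305. All 7 were among the 39, at most 182 bases apart. The 7 genes were MSH3, MSH6, EXO1, XPC, XRCC2, XRCC6 and FANCD2. Windows of 30 bases from 5 of them are shown because these genes carry like letters and have different calls, with the matched letters in capitals, read along the gene's strand. MSH6 rose, MSH3, XPC and FANCD2 fell, and EXO1 did not pass. The windows (GRCh38.p14) lie at chr5:80654534-80654563 (plus strand, MSH3), chr2:47783137-47783166 (plus, MSH6), chr1:241848197-241848226 (plus, EXO1), chr3:14178822-14178851 (minus, XPC) and chr3:10026424-10026453 (plus, FANCD2).
MSH3: gcgcggtcaagTTTGGCGCGAAAttgtggc
MSH6: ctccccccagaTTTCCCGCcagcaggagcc
EXO1: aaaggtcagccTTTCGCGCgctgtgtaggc
XPC: cctgcgcccTTTCCCGCctctcgcgagaac
FANCD2: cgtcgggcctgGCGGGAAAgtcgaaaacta

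By position, the 5 members on chromosome 11 (ALKBH3, DDB1, DDB2, MRE11A and ATM) were all lower, where 35.3% of the 657 tested genes of that chromosome were lower. The 3 members on chromosome 12 (ALKBH2, UNG and TDG) were all higher, where 37.8% of 603 tested genes were higher. Both groups are small, were noticed after the values were seen and had no test. Other chromosomes differed as a whole. On chromosome 8, where PRKDC and POLB fell, 51.0% of 386 tested genes were lower (median log2 fold change -0.36). On the X chromosome, where FANCB fell, 49.8% of 416 were lower (median -0.26). On chromosome 19, where XRCC1 and ERCC1 fell, 53.2% of 827 were higher (median 0.39). The part of these differences in the members was not tested.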

How the data were processed

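Ribosome footprints of 28 to 32 bases were sequenced from 5 HAP1 libraries. The authors deposited raw counts per Ensembl transcript in 1 table, and Bowtie and hg38 are named in the submitters' processing notes. The counting tool, the annotation and the treatment of duplicate or shared reads are not stated in any source used here. GENCODE 29 (same build) matched 99.2% of rows. Groups came from the genotype labels, and for symbols with several rows the row with the most counts was used. The test was that of edgeR 4.0.16 under R 4.3.3 (TMM, robust quasi-likelihood fit, filterByExpr with a minimum count of 10 and minimum total of 15), over all 11335 genes, with Benjamini-Hochberg adjustment. The SE of a log2 fold change is its size over the square root of F. The fit was also tested on simulated data. Intervals and depth (4887380 to 17629199 counts) bear on counting error only. Alternatives were RLE, upper-quartile and total-count scaling, DESeq2 1.42.0, limma-voom (limma 3.58.1), other low-count filters, a required fold of 1.5, a non-robust fit, the replicate block, thinned knockout libraries and each library left out. The wild-type libraries had a chi-square per degree of freedom of 1.14 (p = 8.02e-22, over 10241 genes), close to counting error, against 2.73 to 3.48 between the deeper knockout libraries, and were kept as separate samples. Members and lists were chosen with earlier results of these data known. Libraries are given for every direct reversal gene and for up to 3 members of a pathway with the largest rise and fall past the threshold, and up to 3 genes with the smallest adjusted p are named from each other list, except a result that is not reported here. Python 3.11.15 was used for the rest.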

Additional observations from a re-analysis of the deposited data

How the results depend on the processing

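Under 16 alternatives, none of the 34 called members turned direction. Of these, 26 kept their call under every alternative except a required fold above 1.5, and 14 under that one as well. With that required fold, 8 members rose and 6 fell, in place of 12 and 22, and over all genes 2011 rose and 2129 fell, in place of 4288 and 4143. Under the other alternatives 11 to 13 members rose and 17 to 29 fell. Total-count scaling gave a median of -0.25 over all genes, in place of 0.0161, and of -0.40 over members, with 2982 genes higher and 5597 lower, and 11 members higher and 29 lower. Members that had not passed and lay near 0 changed sign under some settings. With total-count scaling the values were -0.20 for EXO1, -0.20 for LIG3, -0.0408 for ERCC5, -0.0946 for XRCC2, -0.24 for XRCC3, -0.27 for RBBP8, -0.18 for NBN and -0.17 for ATR, and EXO1, LIG3, RBBP8 and ATR then passed as lower. With upper-quartile scaling XRCC3 was at -0.0080 and RBBP8 at -0.0368, with a mean CPM of at least 10 they were at -0.0290 and -0.0576, and with RLE and DESeq2 RBBP8 was at -0.0037 and -0.0051. With thinned knockout libraries RBBP8 was at -0.0967 and ATR at -0.0466. ERCC2, ERCC4 and LIG4 passed as lower with total-count scaling and with a mean CPM of at least 10, and ERCC4 also with upper-quartile scaling. With each library left out, EXO1 ranged from -0.0207 to 0.16, LIG3 from -0.0378 to 0.19, ERCC5 from -0.19 to 0.76, XRCC2 from -0.0151 to 0.37, XRCC3 from -0.0202 to 0.0733 and RBBP8 from -0.0849 to 0.0894. Without a wild-type library, the lone one left is assumed to vary like the knockout libraries. The cause of these turns was not tested. The replicate numbers were not shown to pair the libraries (the differences between replicates 1 and 2 correlated between groups at r = 0.0901). With the number as a replicate block, over 4 libraries, 4220 genes rose and 4135 fell, 12 members rose and 21 fell, XPA did not pass (-0.16, adjusted p = 0.143) and XRCC3 was at -0.0221. Depth limits OGG1, MUTYH, XRCC2, ERCC5 and BARD1, whose wild-type libraries held 5 to 31 counts. Of these only BARD1 was called, with 29 counts in each wild-type library.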
